A study of Homo sapiens with 6 samples.

Results

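COPII is the protein coat that buds vesicles from the endoplasmic reticulum (ER) and so carries newly made membrane proteins, receptors included, toward the Golgi. Its assembly starts when PREB (also called SEC12), an ER membrane protein and guanine nucleotide exchange factor, loads the small GTPase SAR1 with GTP. Active SAR1 recruits the inner coat of SEC23 and SEC24, in which SEC24 binds cargo and SEC23 stimulates the GTPase, and the outer coat of SEC13 and SEC31 then forms a cage around the bud. SEC16 and TFG organise the ER exit sites where this happens. The 15 genes described here are this machinery: PREB, SAR1A, SAR1B, SEC23A, SEC23B, SEC24A, SEC24B, SEC24C, SEC24D, SEC13, SEC31A, SEC31B, SEC16A, SEC16B and TFG. They were chosen by name from what the proteins are known to do, but with earlier results of these data known. Of the 170 single guide RNAs (sgRNAs) listed under these names, 86 had reads, and 1 of these, with 7 reads, was set aside. That gave 85 sgRNAs of 102209 against genes, 5 at each of 17 start sites, since SEC31A and SEC31B were each targeted at 2 start sites called P1 and P2. All 85 reached the minimum of 50 reads in 1 or both libraries of a sort, and none of the 15 genes was lost.

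The screen used HEK293 FLP-In cells, a human embryonic kidney line, that expressed an altered delta opioid receptor from a transgene. This receptor (DORmct in the labels, DOR-MRS(WT) in the paper) had a FLAG tag and the peroxidase APEX2. Per the paper, it also carried the C-terminal end of the mu opioid receptor, with a functional recycling motif. All cells also carried dCas9-KRAB-BFP, a catalytically dead Cas9 joined to a repressor, which shuts off the promoter that the sgRNA matches. The labels describe clonal populations picked for strong knockdown. Cells were transduced with 1 of 3 sublibraries (H17, H23 or H456) at a multiplicity of about 0.2, selected with puromycin, grown for 8 days per the labels, and treated with 10 μM of the opioid peptide DADLE for 90 min, also per the labels (the methods of the study give other times). APEX2 then turned Amplex UltraRed into a fluorescent product, and the cells in the bottom and the top quartile of fluorescence were sorted. Each quartile of each sublibrary gave 1 library, with 23426498 to 50486627 reads, so none of the 6 libraries had a replicate, and there was no sample without agonist among them. SAR1B was in H17, the genes PREB, SAR1A and TFG were in H23, and the other 11 members were in H456. In the labels, the letter at the end of each library name stands for the other quartile than the one in the sample title, and the titles were followed. The sign of every phenotype rests on the titles.

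The phenotype of an sgRNA is log2 of its read share among top-quartile cells over its read share among bottom-quartile cells, centred on the median of nontargeting control (NTC) sgRNAs in the same sublibrary. A negative phenotype thus means that cells with the sgRNA were more frequent in the bottom quartile, where the receptor signal was low. The phenotype of a gene is the mean over the sgRNAs at a start site, and each SD is taken over sgRNAs, not over cultures. The sgRNAs of a site were ranked against the NTC sgRNAs in an exact Mann-Whitney U test (two-sided), and P was adjusted by Benjamini-Hochberg over all 18905 genes. The test compares the 2 libraries of one sort. The spread of the NTC sgRNAs was the relevant error, with an SD of 0.47 in H17, 0.28 in H23 and 0.30 in H456. Read counting alone was much tighter: its 95% interval left out 0 for 54 of the 85 member sgRNAs (63.5%), but also for 1076 of the 1862 NTC sgRNAs (57.8%). Whether the sgRNAs lowered the mRNA of their targets was not measured in these libraries.

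The sgRNA sequences themselves were not at hand, so promoters of the genes are shown instead. The sgRNA positions were not matched to these promoters, so a printed stretch need not hold the site of any sgRNA. RefSeq (GRCh38.p14) gave windows of 250 bases before to 50 bases after a start for 14 of the 15 genes, with SEC24D not in the table. The promoter of PREB is shown because PREB carried the phenotype of the group. In its 250 bases upstream of the start, at chr2:27134637-27134886 on the minus strand, capitals mark the GC boxes (GGGCGG on either strand) and the CCAAT box (CCAAT on either strand).

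PREB promoter: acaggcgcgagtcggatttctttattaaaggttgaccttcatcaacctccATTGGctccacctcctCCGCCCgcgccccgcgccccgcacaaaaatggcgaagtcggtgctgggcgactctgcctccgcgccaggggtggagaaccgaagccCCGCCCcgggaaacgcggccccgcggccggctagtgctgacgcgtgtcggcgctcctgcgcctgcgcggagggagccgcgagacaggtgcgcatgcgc

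A feature that many of the other promoters held, and the window of PREB did not, was the run GCCACGT, searched on both strands. It was picked after the sequences had been read, so its frequency is a description. At least 1 window of 9 of the 14 genes contained it (64.3%), against 3.95% of all 27305 genes in the table, and 13 of 24 member windows contained it against 3.21% of 35116 windows of the same length. Its reverse complement overlaps the unfolded protein response element TGACGTGG, which was found for SEC16A, SEC16B, SEC23A and SEC24A (4 of 14 genes, or 28.6%, against 0.927% of all genes). The endoplasmic reticulum stress element (ERSE), another sequence read by the stress factors of the ER, was matched in none of the 24 windows and in 0.0769% of all windows. The 24 windows had a median GC content of 66.5%, against 58.7% for all. Windows of a gene with several starts can overlap, as for SEC13 and SEC31A, so 1 match can count in more than 1 window. Matches upstream of or at a start are printed for 7 genes, each with the run in capitals. Of the 3 matches of SEC31A, 1 is printed, and those of SEC16A and TFG, which lay after the start, are not.

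SAR1A (chr10:70170700-70170725, minus strand): ttccggcgctGCCACGTctcgcgcgg
SEC23A (chr14:39103222-39103247, minus strand): cctcctcttgACGTGGCagaggcggc
SEC24A (chr5:134648598-134648623, plus strand): agagtcggtgACGTGGCggcgaggcc
SEC24A (chr5:134648731-134648756, plus strand): agccggaagtGCCACGTgtcctgatt
SEC24C (chr10:73744290-73744315, plus strand): cgaaatgcagACGTGGCagaagaagt
SEC13 (chr3:10321074-10321099, minus strand): gccgggagctGCCACGTccgagacct
SEC31A (chr4:82900604-82900629, minus strand): ccaatgacagGCCACGTtgtgtccca
SEC16B (chr1:177984298-177984323, minus strand): tgggcagctgACGTGGCaacacagtt

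Of the 15 genes, PREB alone passed the test, with a negative phenotype. That is 1 of 15 called negative, beside 0.381% of all genes (72 of 18905), and 0 of 15 called positive, beside 0.0952% of all genes. PREB was also the only member with an unadjusted exact P under 0.05, where 8.12% of all genes had one. The phenotypes of the 14 other members ran from −0.15 for SEC16B to 0.23 for TFG. They lay well inside the size that called genes reached, since the smallest phenotype of a called gene, without its sign, was 0.48 in H17, 0.41 in H23 and 0.38 in H456. A phenotype below the threshold of the test does not show that a gene had no effect.

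PREB, the activator at the head of the pathway, had a phenotype of −0.93 ± 0.33 (SD, n = 5 sgRNAs; adjusted exact P = 0.00017). It was the 11th lowest of the 6042 genes in H23 and lay at −3.33 SDs of the NTC sgRNAs. Its first sgRNA, counted along the chromosome, had 745 reads in the bottom library and 677 in the top library. The second had 2960 reads in the bottom and 1581 in the top. For the third, 1204 reads stood against 753. The fourth had 861 against 437, and the fifth 1220 against 738. Every PREB sgRNA was thus more frequent in the bottom quartile, and since the top library of H23 was the larger one, the difference in share was larger than that in reads: from 73.5 to 33.4 RPM (reads per 1000000 analysed reads of the library) for the second sgRNA, and from 21.4 to 9.24 RPM for the fourth.

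The 5 sgRNAs against PREB fell into a tight set and a weaker one that stood apart from it in position. Those numbered 2 to 5 lay within 18 bp of each other, on both strands, and had phenotypes of −1.15, −0.92, −1.23 and −0.97, a mean of −1.07 ± 0.14. The first lay 407 bp away and had a phenotype of −0.38 (95% counting interval −0.54 to −0.23). Only the 4 neighbours were below the 5th percentile of the NTC sgRNAs of H23, which was −0.45. Of the 570 NTC sgRNAs in H23, 6.84% were below the first one. Overlapping sgRNAs share their target, so the 5 values are not independent measurements of the gene. When sgRNAs less than 20 bp apart were averaged to 1 value in every gene, PREB kept 2 values with a mean of −0.73, an unadjusted exact P of 0.0057 and an adjusted P of 0.53, and was no longer called. This setting was chosen after seeing the data, and it left 16 of the 90 called genes of the whole screen. Leaving out any 1 of the 5 PREB sgRNAs kept the call, with means from −1.07 to −0.86 and adjusted exact P values from 4.4e-05 to 0.0044.

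SAR1, the GTPase that PREB acts on, is encoded by a pair of paralogs, and neither was called. SAR1A had a phenotype of −0.093 ± 0.17 (SD, n = 5 sgRNAs; adjusted exact P = 0.87), with sgRNAs from −0.29 to 0.16. Its sgRNAs had 902 to 2261 reads per library, in the same pair of libraries as PREB. SAR1B had −0.050 ± 0.18 (n = 5; adjusted exact P = 0.96), with sgRNAs from −0.24 to 0.15, in a sublibrary where the NTC spread was the widest of the 3. The weakest PREB sgRNA was lower than all 10 sgRNAs against the paralogs. The sgRNAs against SAR1A were in H23 and those against SAR1B in H17. Reads were counted for each sgRNA on its own, so the screen holds no measurement of these or any other paralogs lowered together.

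The inner coat showed small phenotypes of both signs. The SEC23 paralogs, which supply the GTPase-activating subunit, were both positive in mean, at 0.17 ± 0.25 for SEC23A and 0.12 ± 0.15 for SEC23B (SD, n = 5 sgRNAs each; adjusted exact P = 0.80 and 0.82). SEC23A had 3 positive sgRNAs of 0.35, 0.19 and 0.45 and a pair, 3 bp apart, at −0.15 and −0.015. For SEC23B, 4 of 5 sgRNAs were positive and the highest was 0.29. None of these 10 sgRNAs crossed the 95th percentile of the NTC sgRNAs in H456, 0.46. The 4 SEC24 paralogs, the cargo-binding subunits, were at −0.049 ± 0.20 for SEC24A, −0.095 ± 0.22 for SEC24B, −0.0030 ± 0.17 for SEC24C and −0.011 ± 0.21 for SEC24D (n = 5 each), and each had sgRNAs on both sides of 0. Their adjusted exact P values ran from 0.90 to 0.99. The lowest of the 20 SEC24 sgRNAs was the third against SEC24B, with 1807 reads in the bottom library, 796 in the top and a phenotype of −0.42, and the highest was 0.26 for SEC24D.

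In the outer coat, SEC13, the small β-propeller subunit that is also part of the nuclear pore and of a regulator of the kinase mTORC1, had a phenotype of −0.13 ± 0.21 (SD, n = 5 sgRNAs; adjusted exact P = 0.82), with 4 of 5 sgRNAs negative. Its 5 sgRNAs lay within 39 bp, and the lowest, at −0.42, had 1204 reads in the bottom library and 528 in the top. SEC31A, the main SEC31 paralog of most cells, was at −0.078 ± 0.16 at start site P2 and 0.033 ± 0.17 at P1 (n = 5 each). SEC31B was at 0.17 ± 0.33 at P1 and −0.15 ± 0.40 at P2, so the sign of both paralogs turned with the start site. Each of these means was smaller in size than its SD. The SEC31B sgRNAs at P1 are also listed under another gene, NDUFB8, so its start sites do not compare SEC31B alone. The sgRNAs of SEC31B covered the widest range of the outer coat. At P1 the second one had 964 reads in the bottom and 895 in the top library, a phenotype of 0.66. At P2 the fourth had 518 against 195, a phenotype of −0.64. No start site of the outer coat had an unadjusted exact P under 0.05, the lowest being 0.22 for SEC13.

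Among the scaffolds of ER exit sites, SEC16A had −0.080 ± 0.30, SEC16B −0.15 ± 0.30 and TFG 0.23 ± 0.58 (SD, n = 5 sgRNAs each; adjusted exact P = 0.96, 0.82 and 0.95). TFG, a protein that forms oligomers at the exit sites, had the highest mean and the widest spread of the members. Of its sgRNAs, the third had 270 reads in the bottom library of H23 and 621 in the top, and the fourth, 15 bp away, had 756 and 1485, which gave phenotypes of 0.95 (95% counting interval 0.75 to 1.17) and 0.73 (0.60 to 0.86). The other sgRNAs of TFG were at −0.26, −0.28 and −0.010. Both high ones were above the 95th percentile of the NTC sgRNAs, 0.41, and the mean of the gene rested on them: the median over its 5 sgRNAs was −0.010. SEC16A also had sgRNAs of both signs, from −0.45 to 0.16, and 1 sgRNA against SEC16B, at −0.59, was below the 5th percentile.

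Over the whole group, 11 of the 15 genes had a negative phenotype (73.3%), where 49.6% of all genes did, and the median was −0.050, against 0.0013 for all genes. Within a member, the median SD over sgRNAs was 0.21. The means of SEC24C and SEC24D, both counted as negative, were only −0.0030 and −0.011. Of the 85 member sgRNAs, 46 were negative (54.1%), where 48.9% of all sgRNAs were. Without PREB, 41 of 80 were negative (51.2%). At the level of sgRNAs, 6 of 85 were below the 5th percentile of the NTC sgRNAs of their sublibrary, where 5.04% of all sgRNAs were, and 3 of 85 were above the 95th percentile, where 4.96% of all were. PREB supplied 4 of the 6, SEC16B and SEC31B the others. Without PREB, 2 of 80 were below, 3 of 80 were above, and the median of the 14 genes was −0.049. The shares in both tails were thus near or under those of all sgRNAs once PREB was left out. Only PREB had all of its sgRNAs on one side of 0, and the other 14 had sgRNAs of both signs at the start site used.

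Some sgRNAs were read in 2 separate sorts, taken as those with at least 10% of their reads in each. That gave a limited look at how well a phenotype repeats. This touched 6 member sgRNAs. The sgRNAs at P1 of SEC31B are listed under NDUFB8, a subunit of mitochondrial complex I, as well, and could silence both genes. In H23 4 of them averaged −0.061 ± 0.41, and in H456 the same 4 averaged 0.21 ± 0.36. The second was positive in both sorts, with 0.51 in H23 on 100 and 169 reads and 0.66 in H456, whereas the fourth was −0.31 in H23 and 0.22 in H456. NDUFB8 as a gene had a phenotype of −0.054 ± 0.36 (n = 5 sgRNAs; adjusted exact P = 0.91). The fifth sgRNA of SEC16A, also listed under C9orf163, was −0.24 in H17 and 0.089 in H456, and the fourth, on 311 and 214 reads in H23, was −0.79 there and 0.15 in H456. The fourth is listed under no other gene and had only 11.4% of its reads outside H456. Whether H23 was built to hold it is not known. C9orf163 itself was at −0.068 ± 0.26 (n = 5; adjusted exact P = 0.96).

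The spread between sorts was taken over all sgRNAs found in a pair of sorts, those against members included. The SD of the difference was 0.53 over 262 sgRNAs for H17 and H23, 0.45 over 385 for H17 and H456, and 0.46 over 236 for H23 and H456. Pearson's r across these sgRNAs was 0.20, 0.24 and 0.19, and the sign was the same in both sorts for 51.5%, 52.5% and 56.4% of them. The sgRNAs of a sort share its libraries, so these values are a description. The differences of 0.15 to 0.94 for the 6 member sgRNAs can be read against these SDs. No PREB or TFG sgRNA was measured in a second sort.

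How abundant an sgRNA was over both quartiles together is a readout that does not use the ratio between them. It was taken as log2 of the mean share of reads over both libraries, less the median of the NTC sgRNAs, and the abundance before knockdown is not known from these libraries. By the same test, 0 of 15 members were called for abundance, where 0.254% of all genes were (48 of 18905), and 0 of 15 had an unadjusted exact P under 0.05, where 12% of all genes had one. PREB was at −0.25 ± 0.72 (SD, n = 5 sgRNAs; adjusted exact P = 0.82), and its sgRNAs ran from −0.87 for the fourth to 0.94 for the second, both of which had phenotypes below −1. SAR1A was at 0.26 ± 0.45, and SAR1B at −0.26 ± 0.92. Of the outer coat, SEC13 was at −0.0027 ± 0.76. SEC16B and SEC24A had the highest abundance of the members at the start site used, 0.50 ± 0.48 and 0.51 ± 0.41. When olfactory receptor sgRNAs took the place of the NTC sgRNAs, 3 members were called as more abundant, SEC24A at 1.12, SEC16B at 1.12 and SEC24D at 1.00 (adjusted exact P = 0.023, 0.028 and 0.028), and 0 as less abundant. Under that setting 6.49% of all genes were called as more abundant and 0.976% as less abundant. The change of comparison set moved the abundance of every gene in H456, which holds these 3 members, by 0.61 and of every gene in H23 by −0.60, and 1186 of the 6614 genes of H456 were called as more abundant.

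The proteins that work with the coat were described from 4 lists. Of all genes, 49.6% were negative, 0.381% were called negative and 0.0952% were called positive. A count of 0 called in lists this short is thus near the share of all genes. Regulators of the coat, such as the kinase CSNK1D and the ubiquitin ligase subunits CUL3 and KLHL12, made up 10 library entries with a median phenotype of −0.031, 6 negative and 0 called. MIA2 and MIA3, which help to load large cargo at exit sites, had the lowest means, −0.83 ± 0.78 (5 of 5 sgRNAs negative; adjusted exact P = 0.27) and −0.76 ± 0.84 (4 of 4 at start site P2; adjusted exact P = 0.39). Both were in H17, where 5% of the NTC sgRNAs were below −0.76. The library also lists CTAGE5, now counted as part of MIA2, and that entry was at 0.0026 ± 0.45 in H456. SEC23IP, a partner of SEC23, was at −0.34 ± 0.29 (4 of 5 negative; adjusted exact P = 0.39).

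Receptors that bring cargo into COPII vesicles, 25 genes of the p24, cornichon, lectin and KDEL receptor families and others, had a median of 0.079, with 8 negative and 0 called. TMED10, a p24 protein, was at −0.40 ± 0.32 (5 of 5 sgRNAs negative; adjusted exact P = 0.30). The cornichon genes CNIH3 and CNIH2 were at −0.28 ± 0.23 and 0.22 ± 0.23 (n = 4 sgRNAs each). The tethers and SNAREs that receive the vesicles numbered 18, with a median of −0.075, 11 negative and 0 called. RAB1A, the GTPase that recruits tethers, was the lowest at −0.38 ± 0.31 (5 of 5 negative; adjusted exact P = 0.26), and the SNAREs BET1 and SEC22B were at −0.20 ± 0.30 and −0.17 ± 0.18. For the 12 partners of SEC13 in the nuclear pore and in the mTORC1 regulator GATOR2, the median was −0.13, with 8 negative and 0 called. Among those with at least 4 sgRNAs of one sign, the lowest were MIOS of GATOR2 at −0.38 ± 0.33 (adjusted exact P = 0.34) and the nucleoporins NUP98 at −0.32 ± 0.43 and NUP107 at −0.26 ± 0.39.

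COPI, the coat that returns vesicles from the Golgi to the ER, was set beside COPII as the most similar machinery. Of its 9 genes, 7 were negative, where 49.6% of all genes were, with a median of −0.24 against −0.050 for the COPII genes. None was called, and 3 of 9 had an unadjusted exact P under 0.05, where 8.12% of all genes had one. The same count was 4 of 10 for the regulators of the coat, 3 of 12 for the partners of SEC13, 2 of 25 for the cargo receptors and 1 of 18 for the tethers and SNAREs. COPA was at −0.33 ± 0.18 (5 of 5 sgRNAs negative; adjusted exact P = 0.20), COPB2 at −0.33 ± 0.30 and COPZ1 at −0.29 ± 0.20 (4 of 5 negative each). Of the 55 sgRNAs against COPI genes, 10 were below the 5th percentile of the NTC sgRNAs, beside 6 of 85 for COPII. The share of all sgRNAs below it was 5.04%. Of the 6 for COPII, 4 were against PREB, and how the 10 for COPI divide among its subunits was not counted. Above the 95th percentile were 1 of 55 for COPI and 3 of 85 for COPII, where 4.96% of all sgRNAs were. COPG1 had the lowest mean of the COPI genes, −0.46 ± 0.52, with only 3 of 5 sgRNAs negative. The difference between the groups was not tested.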

How the data were processed

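The authors amplified sgRNAs from genomic DNA of sorted cells with 27 PCR cycles and no molecular identifiers and counted them with ScreenProcessing (version 0.1). Deposited were raw counts, not normalized, of 209070 sgRNAs per library, 104553 of them with reads. No source used here gives the genome build behind the sgRNA positions, so only distances are printed. A gene was analysed in the sublibrary with the most of its sgRNAs, and an sgRNA was kept with at least 10% of its reads there. Of 170 member rows, 86 had reads, and 1 of these, with 7 reads, fell outside. If a count was 0, both counts of the sgRNA were raised by 1. A gene needed 2 sgRNAs, and the start site with the lower P stood for it. Because every group had a single library, edgeR and DESeq2 could not be used as tests and only supplied alternative centring. The pseudogene hit rule of the paper's methods was not used. Python 3.11.15, numpy 2.4.6, pandas 2.3.3, R 4.3.3, edgeR 4.0.16 and DESeq2 1.42.0 were used. The procedure was run on simulated data with independent noise for each sgRNA, which does not test sgRNAs that overlap. Named are all members and the genes that share sgRNAs with members. Of each other list, the 3 genes with the largest phenotype and at least 4 sgRNAs of one sign are named. CTAGE5, CSNK1D, CUL3, KLHL12 and COPG1 are named as list entries. A further gene that the rule named is not reported here. The members, lists and tests were chosen with earlier results of these data known. Counting intervals cover counting error only. Alternatives changed the read minimum, pseudocount, centring, gene summary, start sites, comparison set and shared or overlapping sgRNAs.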

Additional observations from a re-analysis of the deposited data

How the results depend on the processing

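PREB stayed negative under all 15 settings that were run for every gene and without each of its sgRNAs in turn, and kept its call in 19 of these 20. The exception was averaging overlapping sgRNAs, chosen after seeing the data, where it was at −0.73 (adjusted exact P = 0.53), 0 member genes were called negative, and 12 genes were called negative and 4 positive over all genes. Centring on all sgRNAs, by edgeR or by DESeq2 left the ranks in the test as they were. So did the median and the mean of the 3 strongest sgRNAs, and these settings could not change any call. The PREB sgRNAs had 437 to 2960 reads, so no read minimum removed any of them. PREB had a single start site and no shared sgRNA, so pooling start sites or leaving out shared sgRNAs kept its values. The 19 of 20 thus include settings that could not change the PREB values. Each run without 1 PREB sgRNA still held most of the 4 that lay within 18 bp of each other. The olfactory receptor comparison set held only 35 sgRNAs in H23. Over the members other than PREB the count of negative calls was 0. Without the strongest sgRNA of every start site, 20 genes were called negative and 2 positive over all genes, and 3 member sgRNAs were below and 1 above the NTC tails. With olfactory receptor sgRNAs as the comparison set, 41 and 9 genes were called, and 3 members were called for abundance, beside 6.49% of all genes called as more abundant. The median phenotype of the members ran from −0.090 to 0.0096.

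No other member was called in phenotype under any of these settings (209 values, 196 of the same sign; SEC13 had no value with overlapping sgRNAs averaged, since its sgRNAs merged to under 2 values), but 13 small values changed sign. With the median over sgRNAs, SEC24B was at 0.0069, SEC24C at 0.076, SEC24D at 0.066, SEC16A at 0.089 and TFG at −0.010. Without the strongest sgRNA, SEC24A was at 0.0096, SEC24C at 0.066, SEC24D at 0.056 and SEC16A at 0.012. SEC24C was at 0.0052 with olfactory receptor sgRNAs and at 0.012 with overlapping sgRNAs averaged, where SEC31B was at −0.14, and SEC31B was at −0.15 without shared sgRNAs, its P2 site.

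Of the abundances, 12 changed sign. SEC13 was at 0.012 with 1 read as the minimum, 0.049 without the strongest sgRNA and 0.61 against olfactory receptor sgRNAs. SAR1B was at 0.037 and SEC16A at 0.69 with the median. Without the strongest sgRNA SEC31A was at −0.044 and TFG at 0.12. SEC31B was at −0.030 with start sites pooled and −0.26 without shared sgRNAs. Against olfactory receptor sgRNAs SAR1A was at −0.34, SEC24B at 0.51 and SEC16A at 0.30, where the setting itself moves every gene of H456 by 0.61 and of H23 by −0.60. The causes of the other changes were not tested. No paired analysis was possible because each group held 1 library. The member sgRNAs had 158 to 2960 reads per library.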
